A study of Mus musculus with 12 samples.

Results

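The genes described here are 9 whose mean signal lay on opposite sides of the untreated mean at 2 h and at 6 h of retinoic acid (RA), which is why they were chosen: Bcl3, Cebpd, Arrdc3, Cpt1a, Capn15, En2, Foxp4, Bace1 and Adamts4. They are 9 of the 18193 genes that could be named on the array, and 21 of its probe sets, each a set of short probes for 1 transcript, carry their names. The cells were KH2 mouse embryonic stem cells grown on feeder cells, and the 12 arrays form 4 groups, each with replicates A, B and C. One group had no RA, and the others had spent 2, 4 or 6 h with RA at 0.3 µM, given in differentiation medium. No other genotype or agent separates the groups in the labels. The treated cells received the differentiation medium together with RA, and the labels do not say that the untreated cells did, so a comparison with no RA holds both. After trypsin the cells were replated briefly on gelatin, and the protocols differ on whether the attached or the unattached cells were kept. Nothing in the labels ties a replicate to a culture of its own, and the p-values therefore measure only the spread between these arrays, which may be technical.

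RA enters cells and binds nuclear RA receptors, which sit on DNA and switch transcription of nearby genes within hours. Genes that respond first encode RA-degrading enzymes and homeobox factors, and later changes can follow from the products of the first. A gene whose level passes its starting value in one direction and then in the other is not described by a single comparison with untreated cells. The 9 genes encode 4 nuclear regulators (Bcl3, Cebpd, En2 and Foxp4), an adaptor for receptor trafficking (Arrdc3), 3 proteases (Capn15, Bace1 and Adamts4) and an enzyme of fatty acid import (Cpt1a).

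The 2 h and 6 h values against no RA chose the genes and are therefore given as a description, without a test. Lying on opposite sides is common: 7805 genes, or 42.9% of all, did so by their brightest probe set, 3542 of them below no RA at 2 h and above it at 6 h, and 4263 the other way. The 9 genes are among those with larger departures at both times. The smaller of the 2 departures, in log2 units, was 0.05 at the median of the 7805 genes, and ranged from 0.30 in Bace1, which stood at place 163 of 7805, to 0.56 in Cpt1a, at place 9. Of the 9 genes, 8 lay below no RA at 2 h and above it at 6 h. Cpt1a alone ran the other way.

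Promoter sequences are shown for 3 genes, because they contrast a pair that lay below no RA at 2 h (Bcl3 and Arrdc3) with Cpt1a. They are the 250 bases before the annotated start in RefSeq (GRCm38.p6), 5′ to 3′ on the strand of the gene. Promoters of 5 of the 9 genes were matched by symbol, and those of Cebpd, En2, Bace1 and Adamts4 were not analysed here. Capitals mark every match to a set of motifs searched on both strands: the RA receptor half-site (AGGTCA) and its repeats with a spacer of 5 or 2 bases, a STAT palindrome (TTCNNNGAA), an AP-1 site (TGANTCA), a cAMP response element (TGACGTCA), an E-box (CACGTG), an NF-kB core (GGGNNNTCC), a TATA box (TATAAA) and a CCAAT box. The windows are chr7:19822756-19823005 on the minus strand for Bcl3, chr13:80883134-80883383 on the plus strand for Arrdc3 (the first of its 3 annotated starts) and chr19:3323051-3323300 on the plus strand for Cpt1a.
Bcl3: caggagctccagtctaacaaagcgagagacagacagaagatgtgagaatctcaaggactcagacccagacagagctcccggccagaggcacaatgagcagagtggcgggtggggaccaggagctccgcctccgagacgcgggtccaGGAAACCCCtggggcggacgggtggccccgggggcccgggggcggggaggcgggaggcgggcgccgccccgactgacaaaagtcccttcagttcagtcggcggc
Arrdc3: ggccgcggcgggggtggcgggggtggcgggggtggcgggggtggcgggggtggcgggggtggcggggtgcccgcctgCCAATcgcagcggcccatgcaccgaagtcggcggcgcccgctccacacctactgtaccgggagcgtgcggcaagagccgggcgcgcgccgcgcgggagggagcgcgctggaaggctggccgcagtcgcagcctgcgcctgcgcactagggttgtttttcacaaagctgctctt
Cpt1a: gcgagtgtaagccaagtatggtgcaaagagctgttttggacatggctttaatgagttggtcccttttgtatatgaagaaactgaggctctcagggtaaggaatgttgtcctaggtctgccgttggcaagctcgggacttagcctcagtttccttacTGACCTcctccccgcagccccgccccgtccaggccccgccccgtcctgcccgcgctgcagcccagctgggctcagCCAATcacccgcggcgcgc
The Bcl3 window held an NF-kB core at position -104 from the start, with 2 overlapping matches just past the start, a motif present in 17.8% of 32851 promoter windows of 300 bases. The Cpt1a window held an RA receptor half-site on the other strand at position -94, against 16.3% of promoters, and a CCAAT box, against 37.4%. Arrdc3 held only a CCAAT box among these motifs. No window of the 5 genes held the paired RA receptor repeats, which 0.00913% of promoters carry for either spacer. No motif of the set matched in the windows of Foxp4 and Capn15, which also lay below no RA at 2 h. The 3 genes shown are those with a match. A match describes letters in this window and says nothing about binding.

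The signal of Bcl3, an IkB-like nuclear protein that binds NF-kB subunits on DNA, was 9.42, 9.21 and 9.42 on the untreated arrays (log2 signal, replicates A, B and C), 8.95, 8.92 and 8.94 at 2 h, 9.56, 9.80 and 9.73 at 4 h, and 10.08, 10.24 and 9.88 at 6 h. No group overlapped its neighbour in time, and the 3 arrays of 2 h had an SD of 0.02. Against no RA the log2 differences were -0.41 at 2 h, 0.35 at 4 h and 0.72 at 6 h, each with a standard error (SE) of 0.10.

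Cebpd encodes C/EBP delta, a basic leucine zipper transcription factor. Its signal was 6.85, 6.68 and 6.71 on the untreated arrays, 6.44, 6.09 and 6.33 at 2 h, 7.89, 7.87 and 7.83 at 4 h, and 7.91, 7.89 and 7.60 at 6 h. The 2 h arrays all lay below the untreated ones, and the arrays of 4 h and 6 h overlapped each other well above them. The log2 differences from no RA were -0.46, 1.12 and 1.06 (SE 0.10), and the 6 h mean exceeded the 2 h mean 2.85-fold, the widest swing of the 9 genes.

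En2, a homeobox factor known from the midbrain and hindbrain, had 6.78, 6.48 and 6.74 without RA, 6.27, 6.22 and 6.29 at 2 h, 7.19, 6.91 and 7.07 at 4 h, and 7.45, 7.27 and 7.26 at 6 h. Its groups followed each other without overlap, at log2 differences of -0.40, 0.39 and 0.66 (SE 0.10) from no RA. The forkhead factor Foxp4 had 8.90, 8.54 and 8.87 without RA, 8.19, 8.27 and 8.30 at 2 h, 8.76, 9.10 and 8.91 at 4 h, and 9.46, 9.23 and 9.29 at 6 h. Its 4 h arrays overlapped the untreated ones, and the log2 differences were -0.51, 0.15 and 0.56 (SE 0.11).

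Arrdc3, an arrestin-domain adaptor that links internalised receptors to ubiquitin ligases of the NEDD4 family, had 9.12, 9.10 and 9.37 without RA. It had 8.91, 8.79 and 8.71 at 2 h, 9.92, 9.89 and 9.90 at 4 h, and 9.68, 9.76 and 9.89 at 6 h. The 4 h arrays differed by an SD of 0.01, and the 4 h and 6 h arrays overlapped, both above all untreated arrays. Its log2 differences from no RA were -0.40, 0.71 and 0.58 (SE 0.09).

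Capn15 encodes a calpain-type cysteine protease related to the fly protein small optic lobes. Its brightest probe set, whose name carries the suffix for possible cross-hybridization, had 8.83, 8.61 and 8.99 without RA, 8.44, 8.29 and 8.34 at 2 h, 9.34, 9.41 and 9.44 at 4 h, and 9.49, 9.58 and 9.38 at 6 h. The log2 differences were -0.45, 0.59 and 0.67 (SE 0.09). Its probe set with the suffix _a stood at -0.36, 0.74 and 0.875 (SE 0.09), with 2 h arrays clear of the untreated ones. Of those without a suffix, the brighter stood at -0.35, 0.62 and 0.74 (SE 0.10), with 2 h arrays that overlapped the untreated ones. The dimmer stood at 0.05, 0.25 and 0.42, with no dip at 2 h.

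Bace1, the beta-secretase that makes the first cut in the amyloid precursor protein, had 7.63, 7.58 and 7.59 without RA, 7.27, 7.31 and 7.32 at 2 h, 7.83, 7.76 and 7.65 at 4 h, and 8.12, 7.90 and 7.98 at 6 h. Adamts4, a secreted protease that cuts aggrecan, had 6.78, 6.57 and 6.83 without RA, 6.33, 6.41 and 6.23 at 2 h, 6.88, 7.03 and 7.08 at 4 h, and 6.94, 7.22 and 7.05 at 6 h. Both were among the smaller responses, with log2 differences of -0.30, 0.14 and 0.40 (SE 0.07) in Bace1 and -0.40, 0.27 and 0.34 (SE 0.10) in Adamts4.

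Cpt1a, the carnitine palmitoyltransferase that controls entry of long-chain fatty acids into mitochondria, had 9.26, 9.64 and 9.79 without RA, 10.18, 10.14 and 10.34 at 2 h, 9.55, 9.48 and 9.37 at 4 h, and 9.07, 8.94 and 8.99 at 6 h. The 2 h arrays were the highest and the 6 h arrays the lowest, with the 4 h arrays inside the range of the untreated ones. The log2 differences from no RA were 0.66, -0.10 and -0.56 (SE 0.12), and the untreated spread (SD 0.27) was wider than that of any RA group (SD 0.07 to 0.11).

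**Figure D1:**
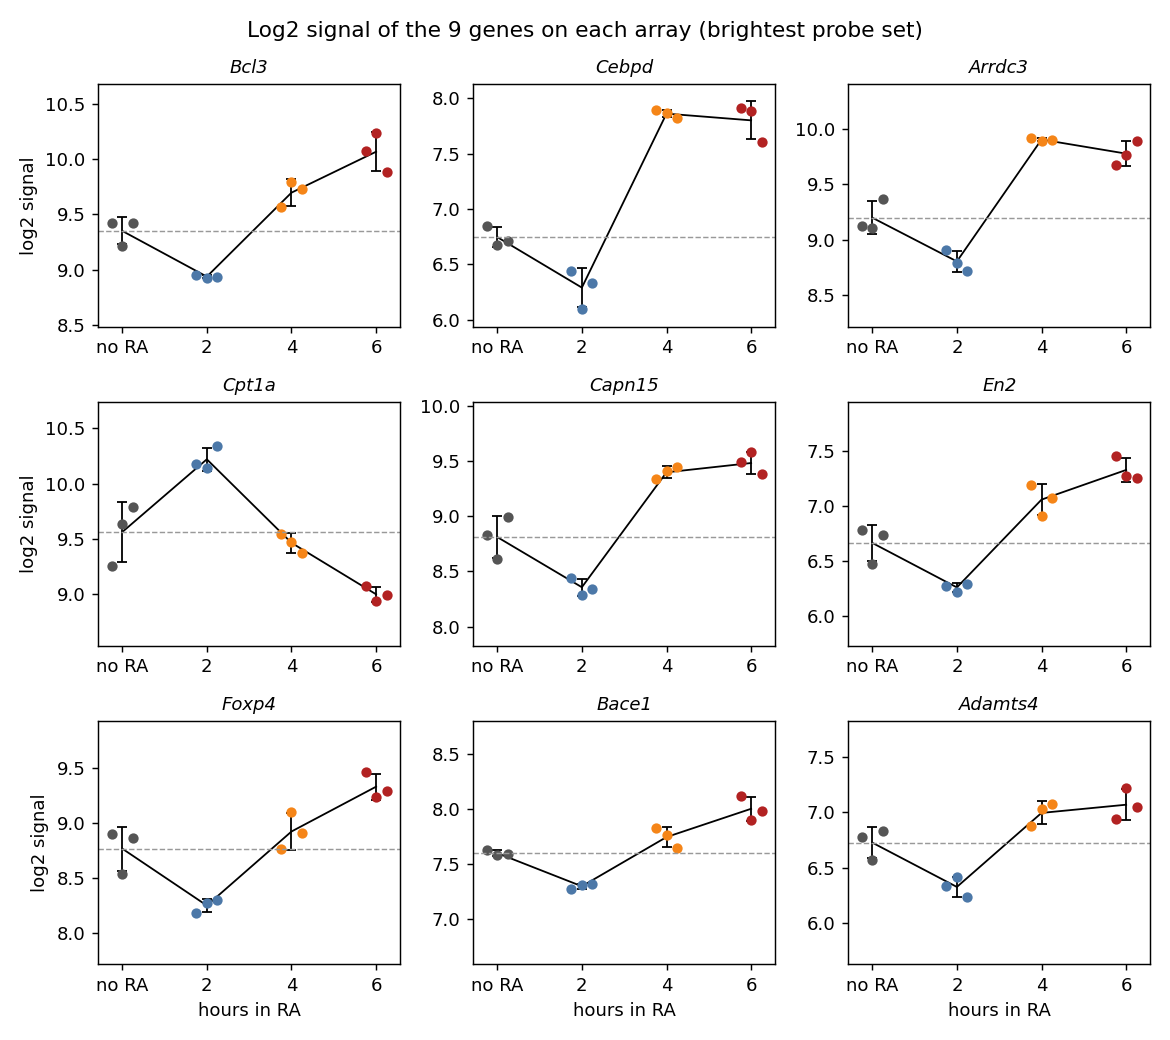
Log2 signal of the brightest probe set of each of the 9 genes (vertical axes, all spanning the same range) on every array, against hours in RA (horizontal axis, no RA at the left). Points are single arrays in the order A, B, C, black bars the mean and SD of 3 arrays, and the dashed line the untreated mean. In 8 panels the 2 h arrays lie under the line and the 6 h arrays over it, and Cpt1a is the reverse.

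At 2 h and at 6 h, the RA arrays were clear of the untreated ones in all 9 genes, as in 22.2% and 39% of all genes, and at 6 h against 2 h again all 9, against 51.9% of all genes. These contrasts chose the genes, so the counts carry no weight of their own. The other probe sets of the same genes gave a mixed picture. Of the 21 probe sets, 16 lay on opposite sides of no RA and 5 did not, one each of Cebpd, Capn15 and Foxp4 and a pair of Bace1. All 3 probe sets of Cpt1a had the shape, with 0.66, 0.73 and 0.70 at 2 h and -0.56, -0.51 and -0.40 at 6 h. The dim probe set of Cebpd, stood at 0.02 at 2 h and 0.21 at 6 h and was the probe set nearest outside the rule. That of Adamts4, with -0.33 and 0.0062, was the nearest inside it. The 5 exceptions included Foxp4 and Bace1 probe sets with small values of both times above no RA (0.21 and 0.07 in Foxp4, 0.13 and 0.07 and 0.20 and 0.22 in Bace1).

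**Figure D2:**
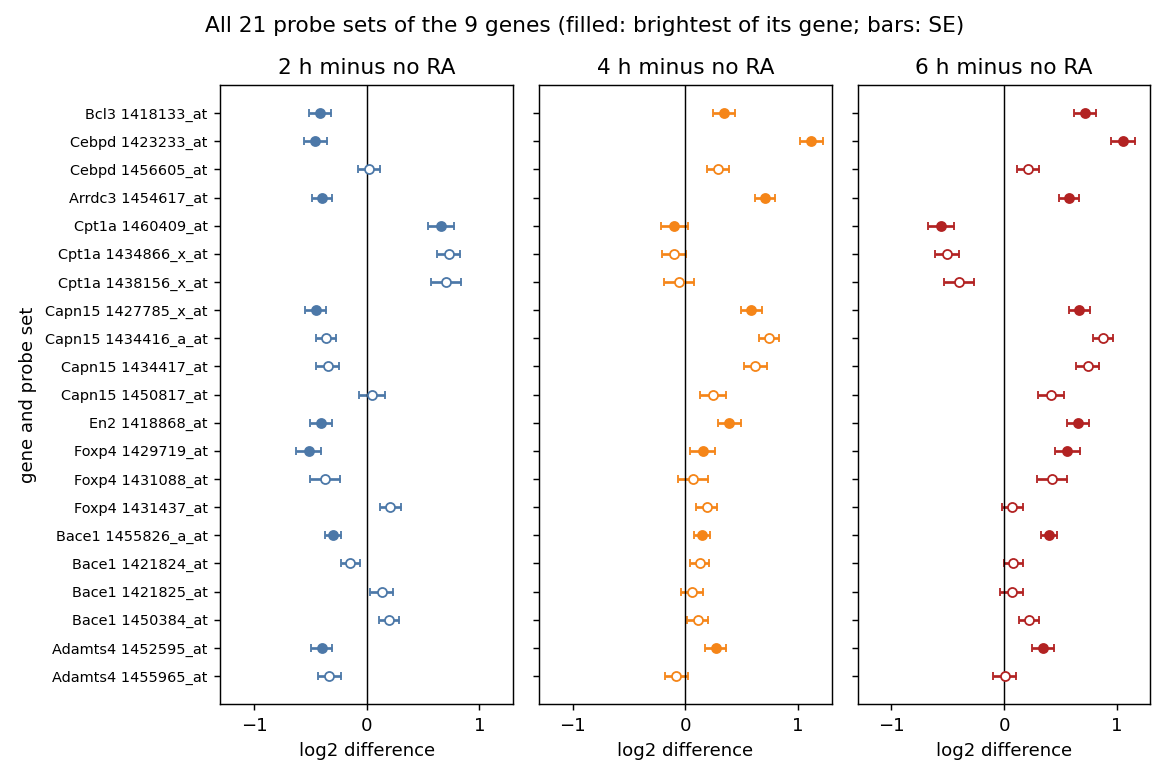
Log2 differences from no RA at 2, 4 and 6 h (left to right panels, horizontal axes) for all 21 probe sets of the 9 genes (vertical axis). Filled points are the brightest probe set of a gene, open points its others, and bars the SE of the fit. The filled points lie left of 0 at 2 h and right of it at 6 h in 8 genes, and the other way in Cpt1a, while 5 open points lie right of 0 at both times.

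The rule that chose the genes did not use the 4 h arrays, and their comparison with no RA was tested. It shares the untreated arrays with the contrasts that chose the genes, which were picked with earlier results of these data known. Of the 9 genes, 8 were chosen as above no RA at 6 h, so the 4 h count is not independent of the choice. By 4 h, 5 of the 9 genes were higher than without RA and 0 were lower (limma, Benjamini-Hochberg adjusted p under 0.05 over 45037 probe sets), where 11.2% of all genes were higher and 12.5% lower. Cebpd rose 2.17-fold, with 7.86 ± 0.03 at 4 h and 6.75 ± 0.09 without RA (SD, n = 3 each; limma adjusted p = 2.57e-05). Arrdc3 rose 1.63-fold (adjusted p = 0.000194), Capn15 by 0.59 on the log2 scale (adjusted p = 0.00105), En2 1.31-fold (adjusted p = 0.0147) and Bcl3 1.27-fold (adjusted p = 0.0273). Adamts4, Bace1 and Foxp4 did not pass, at 0.27, 0.14 and 0.15 on the log2 scale (adjusted p = 0.0747, 0.207 and 0.404), nor did Cpt1a at -0.10 (adjusted p = 0.658). Without overlap between the 4 h and the untreated arrays were 7 of the 9 genes, against 37% of all genes.

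The calls of Cebpd, Arrdc3 and Capn15 held under all 16 alternatives tried, Cebpd at 0.70 with the mean of its probe sets, and those of Bcl3 and En2 did not. Without untreated replicate B the count was 3, since Bcl3 had adjusted p = 0.101 and En2 0.057, and with only the 6 arrays compared it was again 3 (0.0644 and 0.067). Of all 18193 genes, 1676 and 1159 were higher at 4 h in those settings, against 2044 in the fit of all 12 arrays. Bcl3 was also lost without RA 4 h replicate B or C (0.105 and 0.0807) and En2 without RA 4 h replicate A (0.0676). Untreated replicate B was the lowest of the 3 untreated arrays in 8 of the 9 genes, all but Cpt1a.

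By their brightest probe sets, the 9 genes differed in when the turn was complete. Between 2 h and 4 h no arrays of either time overlapped in any of the 9 genes (46% of all genes), and between 4 h and 6 h this was so in 5 of them (23.8% of all genes). Both steps share a time with the contrasts that chose the genes and are given without a test. In Cebpd and Arrdc3 the whole difference between 2 h and 6 h was present at 4 h (104% and 113% of it), with steps of 1.57 in Cebpd and 1.1025 in Arrdc3 up to 4 h and of -0.06 and -0.13 after it (log2, SE 0.10 and 0.09). Capn15 and Adamts4 had reached 92.5% and 90.0% of it. En2 stood at 74.7%, Bcl3 at 67.2%, Bace1 at 63.5%, Foxp4 at 62.3% and Cpt1a at 61.9%, and these 5 were the genes whose 4 h and 6 h arrays did not overlap. Their second steps were 0.27 in En2, 0.37 in Bcl3, 0.26 in Bace1, 0.41 in Foxp4 and -0.47 in Cpt1a. Other probe sets did not all follow. The Capn15 probe set with the suffix _a and the brighter one without a suffix did not overlap between 4 h and 6 h (steps of 0.13 and 0.12). The second brightest of Bace1 reached 120%, with a second step of -0.04 and overlap, and the dim one of Adamts4 74.5%. The other Cpt1a probe sets (67.0% and 68.4%) and the second brightest of Foxp4 (55.1%) went with their brightest, without overlap.

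**Figure D3:**
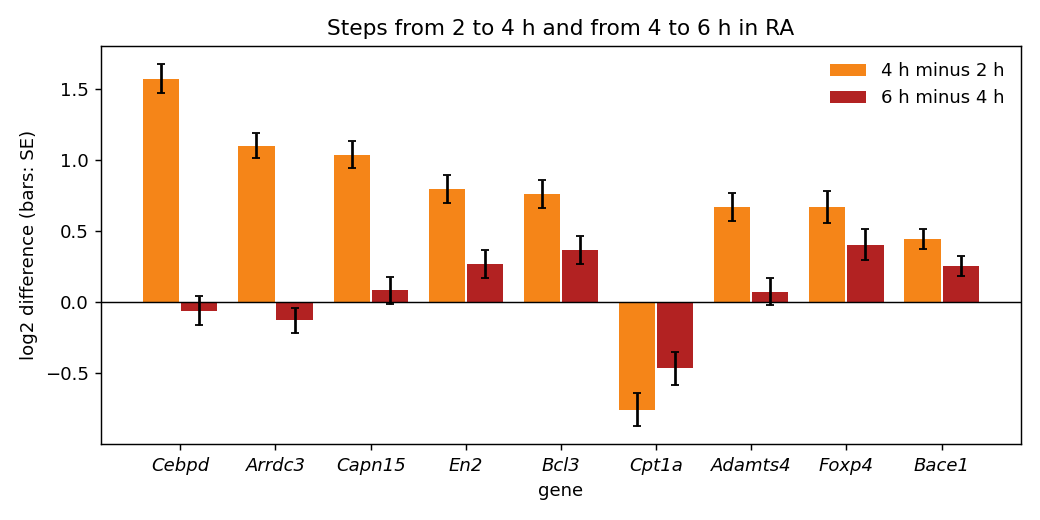
Log2 difference of means from 2 to 4 h (orange) and from 4 to 6 h (red) in RA for the brightest probe set of each of the 9 genes (horizontal axis, ordered by the first step), with the SE of the fit as bars. The first step is the longer one in every gene, and the second is near 0 in Cebpd, Arrdc3, Capn15 and Adamts4.

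Across the 12 arrays the 8 genes with the dip at 2 h correlated with each other, with Pearson's r of 0.81 to 0.97, and with Cpt1a at -0.92 to -0.78. These are descriptions: the points share the 4 groups that define the shape. Among the 1684 genes with a range of at least 1 (log2) over the arrays, the 2 nearest to each member filled 18 places, in which Clk1 and Irf3 were the only genes outside the members to recur. Clk1, a kinase of splicing factors, was among the 2 nearest genes of Capn15, En2 and Adamts4 (r = 0.99, 0.96 and 0.96), and itself stood at -0.43, 0.39 and 0.52 from no RA at the 3 times in order. The interferon regulatory factor Irf3 was near Arrdc3 and Capn15 (r = 0.97 and 0.98). Nop56, a protein of nucleolar ribonucleoproteins, and A930013F10Rik were nearest to Bcl3 (r = 0.98 and 0.97), Usp27x and Rbm43 to Cebpd (r = 0.98 for both), Tada1 to En2 (r = 0.97), the receptor kinase gene Erbb2 to Foxp4 (r = 0.97), the Polycomb gene Bmi1 to Bace1 (r = 0.96) and A930024E05Rik to Adamts4 (r = 0.97). Members were themselves neighbours: Capn15 of Arrdc3, Bcl3 of Foxp4 and En2 of Bace1 (r = 0.96, 0.95 and 0.96). For Cpt1a they were Plpp3, a lipid phosphatase (r = 0.97; 0.53, -0.17 and -0.38 against no RA), and Rgcc (r = 0.97; 0.62, -0.15 and -0.40). Irf3 was read from a probe set with the suffix _x, as was Capn15, while Clk1 and Rbm43 were read from _a and Nop56 from _s. Whether these likenesses belong to the named gene alone was not tested.

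Whether relatives of the 9 genes moved was asked of 10 lists of 156 other genes, 142 of them measured, in the families and pathways of the members. The 9 members were chosen by the 2 h and 6 h values. The genes of the lists were chosen by family and pathway instead, so all 3 times were tested. The lists were drawn up with earlier results of these data known, so the counts may not be independent of that choice. Of the 142, 4, 17 and 17 were higher at 2, 4 and 6 h and 9, 27 and 30 lower (limma), against 1.25%, 11.2% and 13.3% of all genes higher and 0.781%, 12.5% and 13.1% lower. The median log2 difference of the 142 was -0.05, -0.06 and -0.05, and of all genes 0.00, 0.00 and -0.01. On opposite sides at 2 h and 6 h were 55 of the 142, against the 42.9% of all genes above. Genes named below beyond the 3 largest changes of a list were chosen after their values were seen.

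STAT3 signalling is known to switch on Bcl3 and Cebpd and to sustain mouse embryonic stem cells under LIF. Of 16 measured genes of this pathway 4, 8 and 8 were lower at 2, 4 and 6 h and 1 was higher at each time, and 6 passed at no time. Of 10 embryonic stem cell markers, 0, 5 and 5 were lower at the same times and 1 was higher at each, and their part in these values was not tested. Klf4 fell at all 3 times, at -0.64 ± 0.08, -1.16 ± 0.08 and -1.23 ± 0.08 (log2 difference ± SE). The LIF receptor gene Lifr fell by 1.00 ± 0.11 and 1.18 ± 0.11 at 4 and 6 h, and Fos by 0.58 ± 0.11, 1.14 ± 0.11 and 0.73 ± 0.11. With the mean of its probe sets Lifr stood at -0.62 and -0.64, still called. Stat3 itself fell at every time (by 0.63, 0.50 and 0.34) and the coreceptor gene Il6st at 4 and 6 h (by 0.68 and 0.85). The 2 h call of Fos was lost without RA 2 h replicate B or C (adjusted p = 0.095 and 0.0708). The kinase gene Pim1 was the only one higher, by 0.69, 1.00 and 0.92. Socs3 did not pass at any time (0.41, -0.06 and 0.13). Bcl3 and Cebpd themselves were higher at 4 h.

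In the C/EBP family, with 4 other members measured, Cebpb rose by 0.59 ± 0.10 and 0.82 ± 0.10 at 4 and 6 h and Cebpg by 0.40 ± 0.10 and 0.32 ± 0.10, and 0 were lower. At 2 h Cebpb stood at 0.41 ± 0.10 (adjusted p = 0.0592), on the other side of no RA from Cebpd. The calls of Cebpg were lost in several alternatives, for example without untreated replicate A (adjusted p = 0.0602 at 4 h and 0.158 at 6 h), and at 6 h with the mean of its probe sets (0.19, adjusted p = 0.0836). Among 12 measured NF-kB and IkB genes, Relb fell by 0.83 ± 0.09 and 0.76 ± 0.09 at 4 and 6 h and Nfkb2 by 0.37 ± 0.07 at 4 h (-0.24 as the mean of its probe sets, still called). Nfkbie fell by 0.67 ± 0.12 at 2 h, a call that was lost without RA 2 h replicate C (adjusted p = 0.0535). At 6 h Nfkbia was lower (by 0.28) and Ikbkb higher (by 0.25).

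Around En2, in a list of 11 measured midbrain and hindbrain boundary genes, 0, 2 and 2 were higher and 3, 2 and 3 lower. Gbx2, which marks the hindbrain side, rose by 1.74 ± 0.23 and 1.70 ± 0.23 at 4 and 6 h, Otx2, which marks the midbrain side, fell by 1.06 ± 0.18, 0.98 ± 0.18 and 1.23 ± 0.18, and Fgf18 fell by 0.97 ± 0.20 at 2 h and 0.83 ± 0.20 at 6 h. The 2 h call of Fgf18 was lost without untreated replicate A or B or any 1 array of 2 h (adjusted p = 0.0516 to 0.118). En1, the paralogue of En2, stood at -0.21, 0.20 and 0.17 and did not pass at any time, with its signal under the median of all values. Among 15 forkhead genes, 2, 3 and 3 were higher and 0, 1 and 1 lower. Foxp1, a paralogue of Foxp4, rose at every time, by 0.92 ± 0.08, 1.65 ± 0.08 and 1.56 ± 0.08, without the 2 h dip of Foxp4. Foxa1 rose by 1.87 ± 0.13, 2.28 ± 0.13 and 2.56 ± 0.13, with untreated signal under the median of all values, and Foxh1 by 0.23 ± 0.07 and 0.53 ± 0.07 at 4 and 6 h. The 4 h call of Foxh1 was lost without any 1 untreated array or RA 4 h replicate A or B (adjusted p = 0.0537 to 0.137).

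For Arrdc3, of 12 measured arrestin-family and NEDD4 ligase genes, 0 were higher at any time and 0, 3 and 2 were lower at 2, 4 and 6 h. The beta-arrestin gene Arrb1 fell by 0.68 ± 0.11 and 0.96 ± 0.11 at 4 and 6 h, Arrb2 by 0.59 ± 0.10 at 4 h, and the ligase gene Nedd4l by 0.83 ± 0.08 and 0.86 ± 0.08. The brightest probe set of Nedd4l carries the suffix _a. Both calls of Nedd4l were lost once probe sets with a suffix _a, _s or _x were left out (adjusted p = 0.134 and 0.922). The 6 h call was lost also with the mean of its probe sets (-0.20, adjusted p = 0.0592). Arrdc2, a paralogue of Arrdc3, stood at -0.66, 0.25 and 0.29 and did not pass, its untreated arrays being spread at 6.84, 6.93 and 7.89.

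Cpt1a feeds the carnitine shuttle. In its list of 19 measured genes of fatty acid oxidation and PPAR signalling, 1, 5 and 4 were higher and 0, 2 and 2 lower. Slc25a20, the carrier that acts after Cpt1a, rose at every time, by 0.50 ± 0.08, 0.62 ± 0.08 and 0.54 ± 0.08, so at 6 h it lay above no RA while Cpt1a lay below. The brain paralogue Cpt1c rose by 0.56 ± 0.12 and 0.46 ± 0.12 at 4 and 6 h, the 6 h call being lost without replicate A or B of either group (adjusted p = 0.0616 to 0.0757). Angptl4, a PPAR target, rose by 1.09 ± 0.08 and 0.93 ± 0.08 on its brightest probe set, which carries a suffix, and by 0.58 and 0.46 as the mean of its probe sets, and without suffixed probe sets it stood at 0.07 and -0.0121. The dehydrogenase gene Acads fell by 0.54 and 0.49.

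Among the proteases, 14 calpain genes with calpastatin gave 0, 2 and 2 higher and 0, 4 and 3 lower. Capn5 fell by 0.69 ± 0.12 and 1.08 ± 0.12 and Capn2 by 0.36 ± 0.09 and 0.52 ± 0.09 at 4 and 6 h, whereas Capn10 rose by 0.46 ± 0.07 and 0.52 ± 0.07, in the direction of Capn15 at those times. The 4 h call of Capn2 was lost without untreated replicate C or RA 4 h replicate A or B (adjusted p = 0.0515 to 0.0793). Of 17 secretase and amyloid precursor genes 0, 1 and 1 were higher and 0, 3 and 7 lower. The substrate gene App fell by 0.48 ± 0.14 at 6 h, and Psen2 and Adam10, of the gamma- and alpha-secretases, fell at 4 and 6 h (by 0.46 and 0.47, and by 0.38 and 0.41). App and Psen2 reversed to 0.10 and 0.02 at 6 h on probe sets without a suffix, and the call of App was lost without untreated replicate B or RA 6 h replicate B or C (adjusted p = 0.0891 to 0.108). With the mean of the probe sets of a gene App stood at -0.15 (adjusted p = 0.095), Psen2 at -0.19 at 4 h (adjusted p = 0.0578) and -0.22 at 6 h, and Adam10 at -0.18 and -0.25. Among 22 ADAMTS, TIMP and lectican genes, 0, 1 and 1 were higher and 1, 2 and 2 lower. Adamts9 fell by 0.73 ± 0.12 and 0.71 ± 0.12 at 4 and 6 h and the lectican gene Ncan by 0.36 ± 0.11 and 0.59 ± 0.11, while the lectican gene Vcan rose by 0.48 ± 0.09 and 0.59 ± 0.09. These 3 genes depended on the probe set read. With the mean of the probe sets of a gene both calls of Adamts9 ended (-0.20 and -0.13, adjusted p = 0.0802 and 0.251), as did the 6 h call of Vcan (0.16 at 4 h and 0.15 at 6 h, adjusted p = 0.041 and 0.0602) and the 4 h call of Ncan (-0.13, adjusted p = 0.266). The 4 h call of Ncan was lost without replicate C of either group, untreated replicate B or RA 4 h replicate A (adjusted p = 0.0698 to 0.163).

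**Figure D4:**
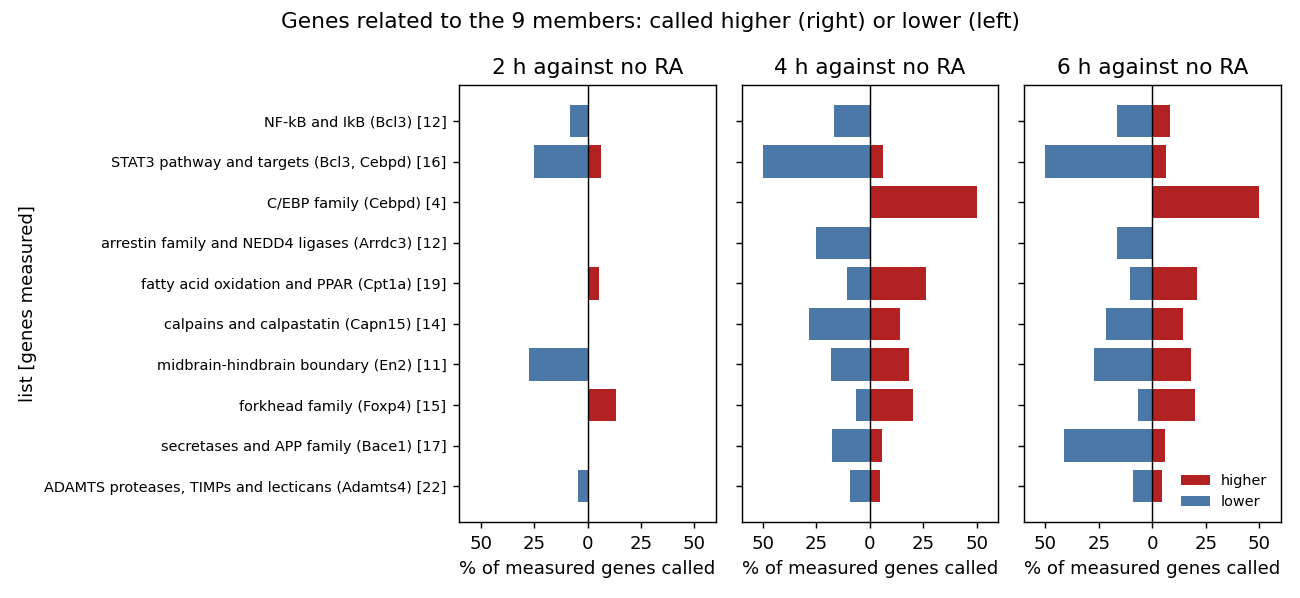
Percentage of the measured genes of each of the 10 lists (vertical axis, number measured in brackets, related member in parentheses) called higher (red, right) or lower (blue, left) than without RA at 2, 4 and 6 h (panels). At 6 h the STAT3 list has 8 of 16 genes lower and the secretase list 7 of 17, where 13.1% of all genes were lower, and the 4 measured C/EBP genes have calls to the right alone.

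The arrays had median log2 signals between 6.05 and 6.10, and 3 arrays a group limit the precision of all values. All 10 embryonic stem cell markers exceeded 6.07, the median of all values, on each of the 12 arrays, and their mean was 12.68 to 12.69 at 2 h, 12.38 to 12.50 at 4 h, 12.36 to 12.47 at 6 h and 12.65 to 12.69 without RA. Feeder fibroblast markers were present too, 16 of 19 above that median on every array, and their mean was 8.78 to 8.95 at 2 h, 8.81 to 8.97 at 4 h, 8.72 to 8.86 at 6 h and, on untreated replicates A, B and C, 8.65, 8.96 and 8.31. Of these 19 genes 0, 1 and 1 were called higher and 0, 0 and 1 lower. Untreated replicate C also correlated less with A and B (r = 0.9935 and 0.9928) than they did with each other (0.9971). The part of feeder RNA in the values of the 9 genes was not tested, and in bulk RNA fewer cells of a type and less RNA per cell cannot be told apart. Without untreated replicate C, 6 of the 9 genes were higher at 4 h and 0 lower, Adamts4 being added (adjusted p = 0.0487). Of all 18193 genes, 2293 were then higher and 2278 lower at 4 h, against 2044 and 2275 with that array kept. In 14 of the 16 alternatives Adamts4 was not called at 4 h, among them the mean of its probe sets (0.09, adjusted p = 0.366).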

How the data were processed

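Total RNA (200 ng per array, biotin-labelled, per the labels' protocols) was measured on 12 mouse expression arrays. The authors deposited 1 log2 signal for each of 45101 probe sets, and the submitters' processing notes name limma 3.4.3. The method of normalization is not given in the sources used here. No further normalization was applied. After 64 control probe sets were left out, 45037 remained, and limma 3.58.1 (R 4.3.3) was run on them (lmFit, then eBayes, with 4 group means and 8 residual degrees of freedom). P-values were adjusted over all of them by the Benjamini-Hochberg method and called under 0.05. The platform's annotation names 34945 probe sets for 1 gene, 932 for several and 9160 for none, and 34741 of the first were matched to a RefSeq mouse gene table by gene ID, with 0 symbols differing. A gene was read from its brightest probe set, the one with the highest mean over all arrays. Differences are RA minus no RA, or later minus earlier time.

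The members and the gene lists were chosen with earlier results of these data known. Named genes were the 9 members, up to 3 called genes with the largest change per list, and the 2 genes best correlated with each member. In simulated data for 4 h against no RA (45037 probe sets, 200 changed), 45% of log2 changes of 0.5 and 95% of changes of 1 were recovered, with 8 false calls. In the data 4319 genes were called at 4 h. The adjusted cutoff therefore differs, and the simulated shares do not give the recovery there. Alternatives were other scalings, probe set choices, filters, variance models, only the arrays compared, a replicate block and leaving out each array. Figures used matplotlib 3.10.9.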

Additional observations from a re-analysis of the deposited data

Results flagged for a closer look

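In 22 of the 50 genes named by the rules above, every 2 h array lay on one side of the untreated mean and every 6 h array on the other. All 9 members are among them, having been chosen for it, and the difference between the times was not tested. As log2 differences of means, 6 h minus 2 h, the values were 1.51 in Cebpd, 1.13 in Bcl3, 1.12 in Capn15, 1.07 in Foxp4, 1.06 in En2, 0.97 in Arrdc3, 0.74 in Adamts4, 0.70 in Bace1 and -1.22 in Cpt1a. So are all 12 other genes named for their correlation with a member, which favours this shape. Their values were 1.04 in Bmi1, 1.00 in Rbm43, 0.98 in Tada1, 0.95 in Clk1, 0.92 in A930013F10Rik, 0.91 in Nop56, 0.91 in Irf3, 0.88 in A930024E05Rik, 0.87 in Erbb2, 0.78 in Usp27x, -0.92 in Plpp3 and -1.02 in Rgcc. Of the 29 genes named from the lists 1 had it, App, whose product Bace1 cuts, at -0.73. App had 9.86, 10.00 and 10.17 at 2 h, 9.45, 9.24 and 9.15 at 6 h, and 9.54, 10.08 and 9.65 without RA on its brightest probe set, so its 2 h arrays overlapped the untreated ones. The share of all genes with every array placed in this way was not counted. Neither the 22 of 50 nor the 1 of 29 can therefore be called frequent or rare. The 42.9% of all genes given above was for group means, a looser rule.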

How the results depend on the processing

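Counts of the related genes at 4 and 6 h stayed within 1.5 times of 44 and 47 under the 16 alternatives of each (31 to 54 and 35 to 61). At 2 h, against 13, they were 20 with array weights, 7 with only the 6 arrays compared and 8 to 17 without 1 array. The members called at 4 h, 5 of 9, numbered 3 with only the 6 arrays compared and 3 to 6 without 1 array. Without 1 array the calls at 4 h over all genes ran from 3170 to 4571. With the replicate block the members called were 5, and the related genes 15, 41 and 47. The letters were not taken to pair the arrays: deviations of same-letter arrays from their group means correlated at -0.16 to 0.16 between RA and untreated groups and at -0.1237 to 0.257 between RA groups, the highest between 6 h and 4 h (0.19, 0.0343 and 0.257 for A, B and C). Of 60 calls of named related genes, 40 held under all alternatives in which the gene could be read. Those of Otx2 at all 3 times and of Nfkb2 at 4 h, on probe sets with the suffix _a, were among these with 15 of the 16. Where suffixed probe sets were left out, Psen2 was at 0.079 and 0.0207 at 4 and 6 h, App at 0.10 and Angptl4 at -0.0121 at 6 h, each the other way from its brightest probe set. Cpt1a, not called at 4 h, was at -0.2484 to 0.0168 without 1 array, the upper value being without untreated replicate C. Over all genes, 369 calls at 2 h became 588 without dim probe sets, 577 with array weights, 122 with only the 6 arrays compared and 176 to 599 without 1 array, 4319 at 4 h became 2562 and 4806 at 6 h became 3019 with only the 6 arrays compared. Depth is not defined for arrays. Signal was not tested against background, and values under the median of all values may be near it.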
